A study of Homo sapiens with 68 samples.

Results

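DNA topoisomerases cut and rejoin the DNA backbone so that strands can pass through each other. The RNA of 4 of their genes, TOP1, TOP2A, TOP2B and TOP3A, was followed in A673 cells, an established Ewing sarcoma cell line. The members were taken by gene symbol from the platform annotation of an Affymetrix human expression array in plate format, with every probe set (a group of short probes to one transcript) that carried 1 of the 4 symbols. This gave 4 genes of 11882 named by the annotation and 8 probe sets of 22215 that are not array controls: 2 for TOP1, 2 for TOP2A, 1 for TOP2B and 3 for TOP3A. Both type II enzymes, TOP2A and TOP2B, are targets of doxorubicin, 1 of the 3 compounds used. Cells received DMSO as vehicle or 1 of 2 concentrations of a compound: ARA-C (0.17 µM and 0.34 µM), doxorubicin (59.88 nM and 119.76 nM) or puromycin (0.09 µM and 0.18 µM). RNA was taken after 24 h, after 3 d and after 5 d. For each compound the lower concentration is its EC50 and the higher one is 2 times the EC50. Vehicle had 6, 5 and 6 arrays at these times. Treated groups had 3 arrays each, except doxorubicin at the higher dose (2) and puromycin at its EC50 (2 used) and at the higher dose (1) at 5 d. All groups came from 1 line, which carries the EWS/FLI fusion gene. On Western blots the study reported a marked loss of EWS/FLI protein with ARA-C and a reduction with doxorubicin, but none with puromycin. The labels call the replicates biological, without saying how the cultures were kept apart.

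TOP1 is a type I enzyme that nicks a single DNA strand and relaxes the supercoils that build up ahead of RNA and DNA polymerases. TOP2A and TOP2B are type II enzymes, which open a gap in both strands and pass another duplex through it. TOP2A is made mainly in dividing cells, rises towards mitosis and separates sister chromatids, whereas TOP2B is present in dividing and resting cells alike and acts largely at transcribed genes. TOP3A, a type IA enzyme, resolves recombination intermediates together with the BLM helicase. Doxorubicin, an anthracycline, traps type II enzymes on cut DNA. ARA-C is a cytidine analogue that, once built into DNA, stops its synthesis, and puromycin ends translation early.

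The arrays were scaled to 1 mean signal, which ran from 1094 to 1103, and the probe set median ran from 92.27 to 213.1. Of 5 Ewing sarcoma markers 4 were measured, and their summed signal ran from 6047 to 28690, lowest in ARA-C at its EC50 at 5 d (6047 to 11710) and doxorubicin at the higher dose at 5 d (6745 to 6969). Among the markers, NKX2-2 and PRKCB are in the study's list of genes lowered by EWS/FLI knockdown, so the sum does not mark the identity of the line alone. The sum of 7 of 8 blood cell markers stayed between 21.82 and 414.2. In 1 array, puromycin at its EC50 at 5 d, replicate 3, these sums were 2943 and 89880 and the median correlation with the other arrays was 0.603, so that the array was left out of every comparison and 67 of 68 were used. Between 0.221% and 22.4% of signals per array lay under the floor of 10, with a median of 19.9%. The 2 arrays with the fewest were ARA-C at its EC50 at 3 d, replicate 3 (0.221%), and ARA-C at the higher dose at 24 h, replicate 2 (0.941%). On the plate, rows G and H held ARA-C at the higher dose at every time, the lone array of puromycin at the higher dose at 5 d and vehicle replicates 4 to 6, with all else in rows A to F. Below, the same plate rows means the same of these sets, A to F or G and H, not the same single row. Inside rows A to F vehicle lay in row A at 24 h, C at 3 d and E at 5 d, so single row and time cannot be told apart. Doxorubicin at the higher dose and puromycin at its EC50 lay in rows B, D and F, which held no vehicle. The log2 ratio of the 3' to the 5' ACTB probe set, a sign of RNA integrity, averaged 0.82, 0.53 and 1.29 in vehicle at the 3 times. At 5 d it parted the vehicle arrays by plate rows, at 1.92 to 2.08 in rows A to F and 0.529 to 0.664 in rows G and H, as did the Ewing marker sum (16190 to 17670 against 26660 to 28690). The treated groups of rows A to F averaged 3.71 (ARA-C), 2.48 (doxorubicin) and 2.28 (puromycin) at the EC50 and 4.55 (doxorubicin at the higher dose) at 5 d, and ARA-C at the higher dose, in rows G and H, averaged 1.57. At 24 h vehicle of rows A to F had 0.509 to 0.828, and the treated groups of these rows averaged 1.25 to 1.79. ARA-C at the higher dose averaged 0.66 at 24 h, against 0.759 to 1.10 in vehicle of rows G and H. At 3 d vehicle had 0.365 and 0.814 in rows A to F and 0.289 to 0.626 in rows G and H. At the EC50 and the higher dose the 3 d averages were 1.13 and 0.9 with doxorubicin and 1.16 and 0.98 with puromycin. Those of ARA-C were 1.31 and 1.7. The part of this ratio in the changes below was not tested. All changes below are log2 differences of the limma fit across all probe sets, with p adjusted by the Benjamini-Hochberg method over 22215 probe sets and called under 0.05, and the treated groups of 1 time share their vehicle arrays. Each array read the RNA of a whole culture, so fewer cells of a kind and less RNA per cell cannot be told apart.

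The promoters of the type II genes are shown because their transcripts moved in opposite directions with doxorubicin at 3 d. Of the 4 genes, TOP1 lies at chr20:41028822-41124487, TOP2A at chr17:40388525-40417896, TOP2B at chr3:25597905-25664907 and TOP3A at chr17:18271428-18314994 (GRCh38.p14, RefSeq). The 250 bases before each start site (RefSeq, GRCh38.p14, minus strand, written 5' to 3' in the direction of the gene) are chr17:40417897-40418146 for TOP2A and chr3:25664908-25665157 for TOP2B. Capitals mark CCAAT, the CCAAT box bound by NF-Y, and TTTGAA, the core letters of a cell cycle homology element found in genes that peak in G2 and mitosis, searched on both strands.
TOP2A promoter: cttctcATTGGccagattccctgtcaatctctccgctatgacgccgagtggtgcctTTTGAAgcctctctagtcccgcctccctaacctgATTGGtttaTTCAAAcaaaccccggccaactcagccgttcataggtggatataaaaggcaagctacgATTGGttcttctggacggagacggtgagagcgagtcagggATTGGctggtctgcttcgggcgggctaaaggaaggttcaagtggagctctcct
TOP2B promoter: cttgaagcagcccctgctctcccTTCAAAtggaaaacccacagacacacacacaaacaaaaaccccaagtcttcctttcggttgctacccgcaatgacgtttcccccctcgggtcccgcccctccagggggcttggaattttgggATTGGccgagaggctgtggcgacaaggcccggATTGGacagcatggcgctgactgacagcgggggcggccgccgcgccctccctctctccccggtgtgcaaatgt
The TOP2A window held 4 CCAAT matches, all written as ATTGG on this strand, and 2 TTTGAA matches, 1 of them written as TTCAAA. The TOP2B window held 2 CCAAT matches, both as ATTGG, and 1 TTTGAA match, as TTCAAA. No match overlapped another. Of 35116 RefSeq promoter windows of this length, 32% held CCAAT, 13.3% held TTTGAA and 4.7% held both. The G and C share was 53.2% for TOP2A and 61.2% for TOP2B.

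In vehicle cells TOP2B RNA was higher at 5 d than at 24 h, while both TOP1 probe sets were lower at 5 d. The TOP2B signal averaged 3388 ± 252 (SD, n = 6) at 24 h, 3837 ± 226 (n = 5) at 3 d and 4535 ± 224 (n = 6) at 5 d, and every 5 d array was above every 24 h array. The difference was 0.42 on the log2 scale (adjusted p = 0.0014), although within the plate rows A to F alone it was 0.43 with an adjusted p of 0.063. Within rows A to F vehicle of each time lay in a row of its own, so row and time cannot be told apart in such values. TOP1 probe set 208901_s_at averaged 9165 ± 239, 9099 ± 356 and 5845 ± 1011 at the 3 times, and fell by 0.66 from 3 d to 5 d (adjusted p = 1.1e-07). The other TOP1 probe set, 208900_s_at, averaged 2695 ± 128, 2648 ± 540 and 1505 ± 577 and fell by 0.88 (adjusted p = 1.6e-05). The 5 d vehicle arrays of TOP1 parted by plate rows: on 208901_s_at those of rows A to F read 7166, 6612 and 6417 and those of rows G and H 5109, 5060 and 4707. Within rows A to F the TOP1 differences of 5 d from 3 d were -0.41 (208901_s_at, adjusted p = 0.041) and -0.52 (208900_s_at, adjusted p = 0.12). The ACTB 3' to 5' log2 ratio and the Ewing marker sum parted these arrays in the same way (1.92 to 2.08 and 16190 to 17670 in rows A to F, 0.529 to 0.664 and 26660 to 28690 in rows G and H). Plate rows and these measures cannot be told apart here, and their part in the TOP1 difference was not tested.

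TOP2A probe set 201291_s_at averaged 2758 ± 283 at 24 h, 2374 ± 311 at 3 d and 3181 ± 332 at 5 d in vehicle, and 201292_at averaged 3360 ± 456, 2537 ± 257 and 3833 ± 593. Both rose from 3 d to 5 d, by 0.42 (adjusted p = 0.0032) and 0.59 (adjusted p = 0.00086) on the log2 scale. Within rows A to F these differences were 0.26 (201291_s_at, adjusted p = 0.52) and 0.37 (201292_at, adjusted p = 0.39) and passed no threshold. TOP3A was dim: 214299_at averaged 322.9 ± 18.1 at 24 h and 283.4 ± 25.1 at 5 d, while 204946_s_at averaged 319.4 ± 25 and 208.5 ± 40.1 and fell by 0.63 (adjusted p = 0.00027). The 5 d vehicle arrays of 204946_s_at parted by plate rows, at 243, 237.5 and 251.3 in rows A to F and 175.8, 185.4 and 157.8 in rows G and H. The third TOP3A probe set, 214300_s_at, averaged 44.4, 50.9 and 26 and had 3 of 67 arrays at or under the floor of 10. Of the 8 probe sets none passed from 24 h to 3 d (limma, with 0 higher and 1 lower at an unadjusted p under 0.05), against 1.50% of all probe sets that rose and 1.88% that fell. From 3 d to 5 d 2 rose and 3 fell, against 12.1% and 9.12% of all, and from 24 h to 5 d 1 rose and 3 fell, against 13.2% and 10.8%. Upward calls were 57.1% and 55% of all calls in the last 2 comparisons, and 36.7% and 36% with each array shifted to 1 median.

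**Figure D1:**
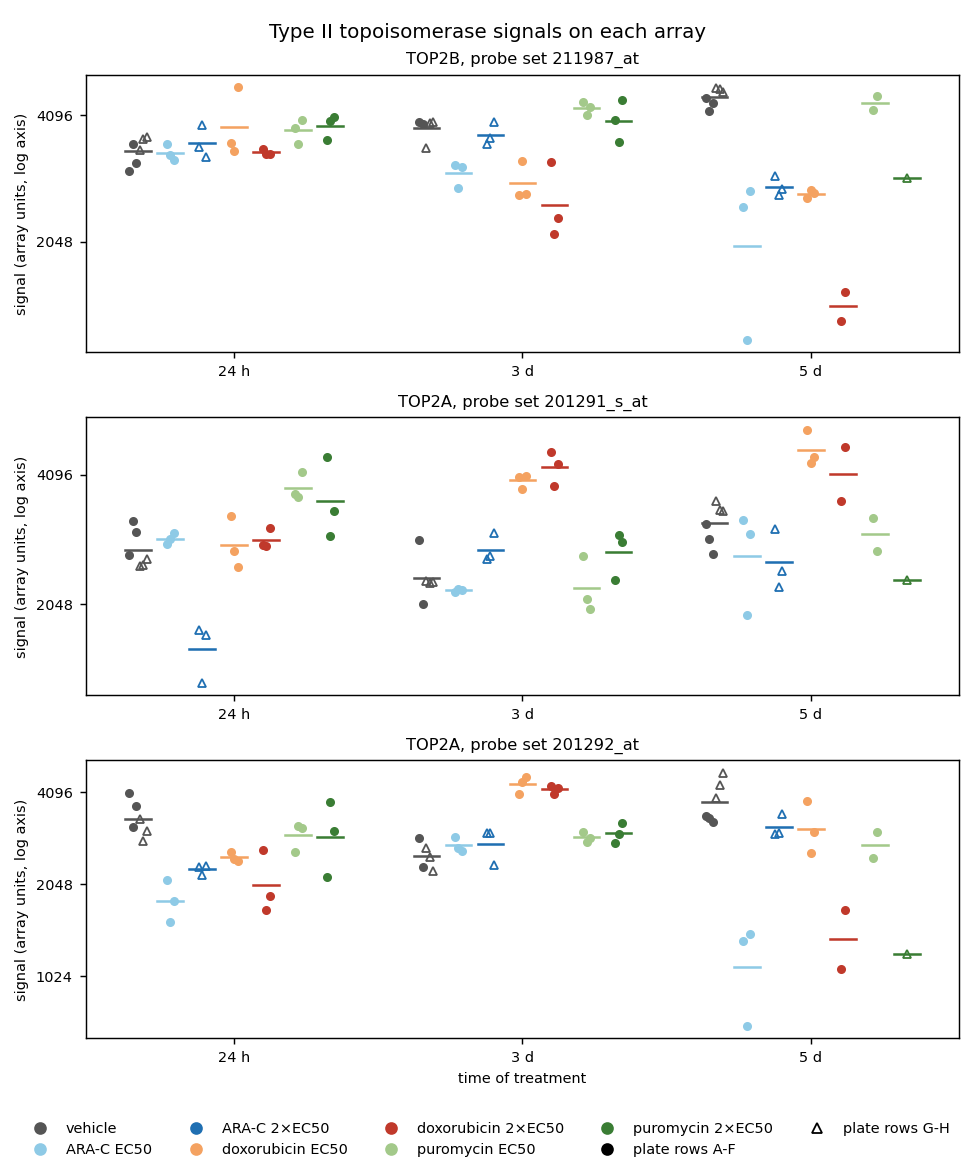
Signal of TOP2B (211987_at) and of both TOP2A probe sets in every array, on a log axis, by treatment group and time. Circles are arrays of plate rows A to F, triangles those of rows G and H, and lines are geometric means of groups. TOP2B points of doxorubicin at 3 d and 5 d lie below those of vehicle of the same time, while those of TOP2A 201291_s_at at 3 d lie above.

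TOP2B fell with doxorubicin and with ARA-C but passed no threshold with puromycin. It was read by 1 probe set, 211987_at, so no second probe set could be compared, as could be done for TOP1 and TOP2A. At 24 h the vehicle arrays ran from 3021 to 3642 with a median of 3451, and doxorubicin at its EC50 read 3529, 3380 and 4784, a difference of 0.19 (adjusted p = 0.5). At 3 d vehicle read 3946, 3906, 3434, 3941 and 3957 and doxorubicin at its EC50 read 2645, 3200 and 2664. The doxorubicin arrays all lay below the vehicle arrays, and TOP2B fell by 0.44 on the log2 scale (SE 0.13, 0.737-fold, adjusted p = 0.011), a call that was lost when only vehicle arrays of those plate rows were used (-0.47, adjusted p = 0.063), and without replicate 1 (-0.39, adjusted p = 0.073) or replicate 3 (-0.40, adjusted p = 0.07) of the treated arrays. The 3 d arrays of the higher dose read 3176, 2136 and 2339, and TOP2B fell by 0.61 (0.656-fold, adjusted p = 0.00031). At 3 d the ACTB 3' to 5' log2 ratio averaged 1.13 and 0.9 at the doxorubicin doses, against 0.365 and 0.814 in vehicle of rows A to F. Its part in the TOP2B fall was not tested.

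At 5 d the vehicle arrays of TOP2B ran from 4189 to 4752 with a median of 4581. Doxorubicin at its EC50 read 2600, 2729 and 2672, a fold of 0.589 (adjusted p = 1.8e-06). The 2 arrays of the higher dose read 1331 and 1555, a fold of 0.318 (log2 change -1.66, SE 0.15, adjusted p = 5.2e-14). All 5 doxorubicin arrays at 5 d were below every vehicle array, and those of the higher dose were below those of the EC50. The gap between the doses was -0.89 (adjusted p = 3.6e-05). With quantile normalization in place of the authors' scaling the 5 d changes were -0.52 and -0.86, both still called. The ACTB 3' to 5' log2 ratio averaged 2.48 and 4.55 here against 1.92 to 2.08 in the vehicle arrays of the same plate rows, and its part in the TOP2B fall was not tested.

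ARA-C at its EC50 left TOP2B at 3511, 3292 and 3215 at 24 h (-0.02). At 3 d it read 3117, 2754 and 3092, a fall of 0.36 (adjusted p = 0.04), which was lost under quantile normalization (-0.20, adjusted p = 0.16), without ARA-C replicate 2 (-0.30, adjusted p = 0.12) or 3 (-0.39, adjusted p = 0.099), and without vehicle replicate 1, 2, 5 or 6 (-0.35 each). At 5 d it read 2483, 1198 and 2706, and TOP2B fell by 1.18 (0.442-fold, SE 0.13, adjusted p = 3.3e-11). The array of 1198 (replicate 2) stands well below the other 2, and without it the fall was 0.81 (-0.81, adjusted p = 8e-09). That array had an ACTB 3' to 5' log2 ratio of 5.07, and its group averaged 3.71, against 1.92 to 2.08 in vehicle of the same plate rows. The part of this ratio in the TOP2B fall was not tested. ARA-C at the higher dose had TOP2B at 3500, 3622 and 3943 at 3 d (-0.06, adjusted p = 0.9) and at 2938, 2651 and 2740 at 5 d, a fall of 0.71 (adjusted p = 1.6e-05). At 5 d the higher dose thus lay above the EC50 by 0.47 (adjusted p = 0.0086), but without the array of 1198 the gap was 0.10 (adjusted p = 0.62), and under quantile normalization the sign turned, to -0.16. The ARA-C doses lay in different plate rows, so dose and plate rows cannot be told apart here.

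Puromycin at its EC50 had TOP2B at 3825, 3512 and 3998 at 24 h, at 4413, 4108 and 4297 at 3 d and at 4218 and 4552 at 5 d. The TOP2B differences from vehicle were 0.16 (95% interval -0.1 to 0.41, and 0.48 and called with each array shifted to 1 median), 0.16 (-0.11 to 0.42) and -0.05 (-0.34 to 0.25). At 3 d all 3 puromycin arrays lay above all vehicle arrays, with an adjusted p of 0.76. The higher dose gave differences of 0.19 (-0.06 to 0.45) at 24 h and 0.05 (-0.21 to 0.32) at 3 d. The single 5 d array of that dose read 2907, below every vehicle array of 5 d, and has no test.

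TOP2A, the type II enzyme of dividing cells, rose at 3 d with doxorubicin on both of its probe sets. On 201291_s_at vehicle at 3 d read 2892, 2047, 2320, 2300 and 2311, doxorubicin at its EC50 read 4061, 3808 and 4066, and the higher dose read 4634, 3857 and 4346. No doxorubicin array came down to the highest vehicle array, and the rises were 1.69-fold (log2 change 0.75, adjusted p = 1.7e-05) and 1.81-fold (0.86, adjusted p = 1.4e-06). On 201292_at vehicle read 2889, 2335, 2688, 2511 and 2261, the EC50 read 4026, 4426 and 4590, and the higher dose read 4301, 4043 and 4224. Again the groups did not overlap, with rises of 1.72-fold (SE 0.16 on the log2 scale, adjusted p = 0.00023) and 1.66-fold (adjusted p = 0.00051). The ACTB 3' to 5' log2 ratio averaged 1.13 at the EC50 and 0.9 at the higher dose, against 0.365 and 0.814 in the vehicle arrays of rows A to F. Its part in the TOP2A rise was not tested.

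The probe sets of TOP2A parted at the other times. At 24 h with doxorubicin at the higher dose 201291_s_at read 2818, 2794 and 3085 (0.08), while 201292_at read 2647, 1682 and 1876, a fall of 0.72 (adjusted p = 9e-04). This group averaged an ACTB 3' to 5' log2 ratio of 1.78, against 0.509 to 0.828 in vehicle of the same plate rows, and its part was not tested. At 5 d with the EC50 201291_s_at read 5209, 4364 and 4522 against 2687 to 3558 in vehicle, a rise of 1.48-fold (adjusted p = 0.00028), and 201292_at read 3820, 2593 and 3025, a difference of -0.29 (adjusted p = 0.15). With the higher dose at 5 d 201291_s_at read 3555 and 4767 (0.38, adjusted p = 0.028, overlapping vehicle), and 201292_at read 1083 and 1691 against 3262 to 4725 in vehicle, a fall of 1.49 (SE 0.18, 0.356-fold, adjusted p = 7.7e-10). The 201291_s_at call at the higher dose was lost without vehicle replicate 3 (0.33, adjusted p = 0.06) or doxorubicin replicate 3 (0.17, adjusted p = 0.53), and was 0.59 without doxorubicin replicate 1. The direction of TOP2A at 5 d therefore depends on the probe set, beside an ACTB 3' to 5' log2 ratio of 4.55 at the higher dose against 1.92 to 2.08 in vehicle of the same plate rows, whose part in it was not tested.

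With ARA-C both TOP2A probe sets fell at the higher dose at 24 h, and 201292_at alone fell at the EC50 at 24 h and 5 d. At 24 h the higher dose read 1789, 1345 and 1735 on 201291_s_at against 2520 to 3202 in vehicle, a fall of 0.77 (0.586-fold, adjusted p = 3.2e-05). On 201292_at it read 2335, 2193 and 2344 against 2833 to 4080, a fall of 0.54 (adjusted p = 0.021). Neither probe set overlapped vehicle, and without replicate 2, the array with few low signals, the values were -0.64 (201291_s_at, adjusted p = 0.0042) and -0.51 (201292_at, adjusted p = 0.12). The 201292_at call was also lost without vehicle replicate 1 (-0.48, adjusted p = 0.052). At its EC50 ARA-C left 201291_s_at at 0.08 at 24 h and -0.26 at 5 d (adjusted p = 0.098), while 201292_at fell by 0.89 at 24 h (2113, 1541 and 1799, adjusted p = 8e-05) and by 1.79 at 5 d (1331, 705.2 and 1406, adjusted p = 9.1e-14). In these EC50 groups the ACTB 3' to 5' log2 ratio averaged 1.79 at 24 h and 3.71 at 5 d. Vehicle of the same plate rows had 0.509 to 0.828 and 1.92 to 2.08. The part of this ratio in the 201292_at falls was not tested. At 3 d no ARA-C group passed on either TOP2A probe set.

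Puromycin gave 1 TOP2A call: at its EC50 at 24 h 201291_s_at read 3698, 3631 and 4158, above every vehicle array, a rise of 1.39-fold (adjusted p = 0.01) that was lost against vehicle of the same plate rows (0.37, adjusted p = 0.12) and without replicate 3 (0.42, adjusted p = 0.1). On 201292_at the same arrays read 2614, 3183 and 3133 (-0.17). At 3 d and 5 d puromycin at its EC50 differed by -0.08 and -0.09 on 201291_s_at and by 0.20 and -0.47 (adjusted p = 0.069) on 201292_at.

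**Figure D2:**
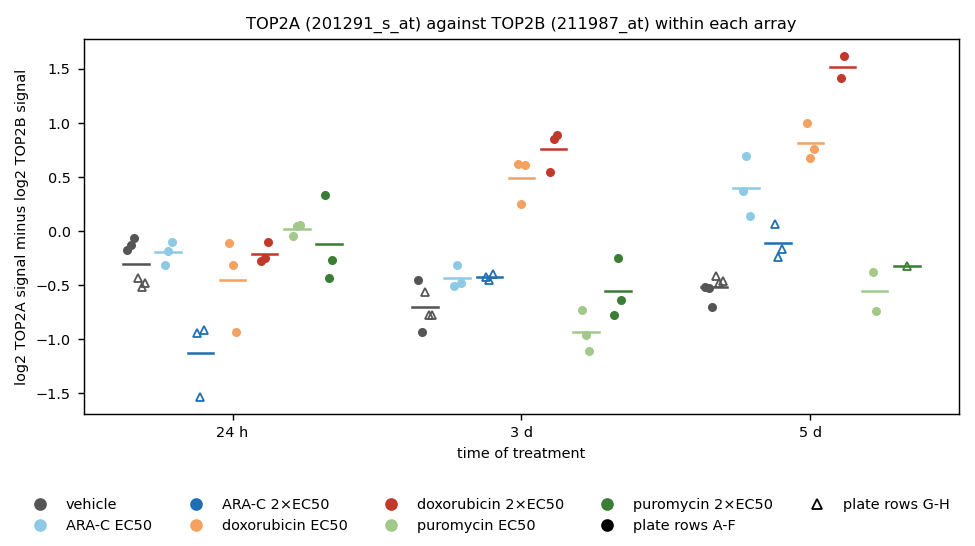
Log2 ratio of TOP2A (201291_s_at) to TOP2B (211987_at) in every array by group and time. Circles are arrays of plate rows A to F, triangles those of rows G and H, and lines are group means. Doxorubicin arrays at 3 d and 5 d lie above 0 and vehicle arrays below it.

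The opposite moves of the type II genes were read within each array as the log2 ratio of the TOP2A signal (201291_s_at) to the TOP2B signal, which serves only to compare groups, since signals of different probe sets do not compare levels. The ratio was read on the same arrays as the changes above, and it and its probe set were chosen with earlier results of these data known, so its p-values are no separate support for those changes. In vehicle the ratio ran from -0.93 to -0.45 at 3 d (mean -0.70 ± 0.19 SD, n = 5) and from -0.70 to -0.42 at 5 d (mean -0.52 ± 0.10, n = 6). With doxorubicin at its EC50 it ran from 0.25 to 0.62 at 3 d and from 0.68 to 1.00 at 5 d, above every vehicle array. At 24 h it averaged -0.30 in vehicle and -0.45 with doxorubicin at its EC50. The differences at the EC50 were 1.19 at 3 d (exact permutation test, two-sided, p = 0.018, adjusted p = 0.045 over 20 comparisons) and 1.33 at 5 d (exact p = 0.012, adjusted p = 0.04). At the higher dose they were 1.46 at 3 d (exact p = 0.018, adjusted p = 0.045) and 2.03 at 5 d (exact p = 0.036, adjusted p = 0.071), where 2 arrays against 6 allow no p below 0.036. With the other TOP2A probe set, 201292_at, in the ratio, the differences were close to these at 3 d, at 1.22 and 1.34 (exact permutation p = 0.018, adjusted p = 0.048 for both). At 5 d they were much smaller, at 0.48 for the EC50 (exact p = 0.024, adjusted p = 0.048) and 0.17 for the higher dose (exact p = 0.39, adjusted p = 0.44). At 24 h that probe set gave -0.60 at the EC50 (exact p = 0.024) and -0.70 at the higher dose (exact p = 0.012, adjusted p = 0.048 for both), where 201291_s_at gave -0.15 (exact p = 0.52) and 0.09 (exact p = 0.46).

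With ARA-C at the higher dose the ratio at 24 h was -1.13 against -0.30 in vehicle, a difference of -0.83 (exact permutation p = 0.012, adjusted p = 0.04). At 5 d the ratio was higher than vehicle by 0.92 with ARA-C at its EC50 and by 0.40 at the higher dose (exact permutation p = 0.012, adjusted p = 0.04 for both), and at 3 d the differences were 0.27 (exact p = 0.071) and 0.28 (exact p = 0.054). Puromycin at its EC50 differed by 0.32 at 24 h (exact p = 0.024, adjusted p = 0.053), -0.23 at 3 d (exact p = 0.16) and -0.04 at 5 d (exact p = 0.89). With 3 d and 5 d together at the EC50, permuted within each time, the difference was 1.26 for doxorubicin (exact permutation p = 0.00021, the smallest of 4704 arrangements, adjusted p = 0.0043), 0.59 for ARA-C (exact p = 0.00064, adjusted p = 0.0064) and -0.14 for puromycin (exact p = 0.15). With 201292_at in the ratio the ARA-C difference at the EC50 turned, to -0.61 at 5 d (exact permutation p = 0.012, adjusted p = 0.048), and was -0.87 at 24 h (exact p = 0.012, adjusted p = 0.048) against 0.10 on 201291_s_at, so its direction at the EC50 rests on the probe set. At the higher dose the values were -0.60 at 24 h (exact p = 0.024) and 0.44 at 5 d (exact p = 0.012, adjusted p = 0.048 for both). The pooled difference with 201292_at was 0.85 for doxorubicin and -0.07 for ARA-C. With vehicle arrays of rows A to F alone the pooled values were 1.29 (exact permutation p = 0.005, adjusted p = 0.1) and 0.62 (exact p = 0.02, adjusted p = 0.18).

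**Figure D3:**
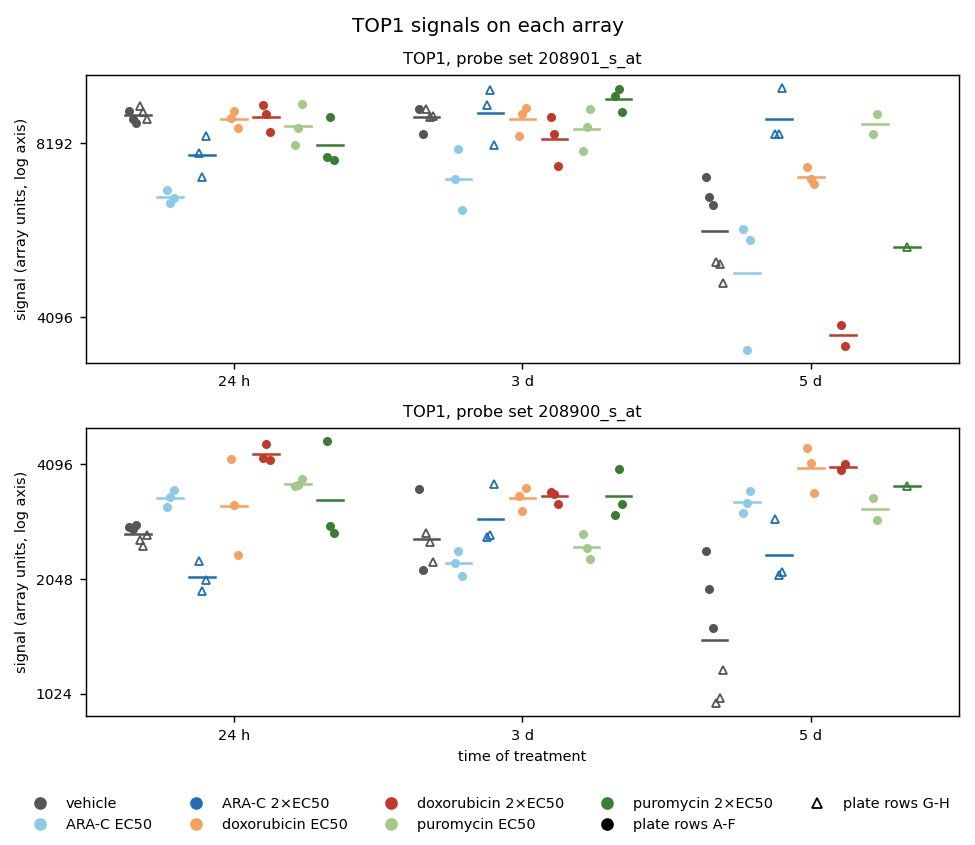
Signal of both TOP1 probe sets in every array, on a log axis, by treatment group and time. Circles are arrays of plate rows A to F, triangles those of rows G and H, and lines are geometric means of groups. On 208900_s_at all doxorubicin arrays at 5 d lie above all vehicle arrays, whose level is lower at 5 d than at 24 h.

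TOP1, which relaxes supercoils ahead of polymerases, was higher than vehicle at 5 d with all 3 compounds on probe set 208900_s_at. The vehicle level itself was lower at 5 d, with averages of 2695 at 24 h and 1505 at 5 d. At the EC50 these averages were 3344 and 3260 with ARA-C, 3265 and 4031 with doxorubicin and 3642 and 3127 with puromycin. Vehicle at 5 d read 2422, 1931, 1522, 970.5, 999.4 and 1185. ARA-C at its EC50 read 3044, 3245 and 3491 (2.29-fold, log2 change 1.20, SE 0.18, adjusted p = 1.1e-07). Doxorubicin read 4517, 4134 and 3443 at its EC50 (2.82-fold, adjusted p = 8e-10) and 3952 and 4093 at the higher dose (2.83-fold, SE 0.21 on the log2 scale, adjusted p = 1.3e-08). Puromycin at its EC50 read 3332 and 2922 (2.2-fold, adjusted p = 7.2e-05). None of these groups overlapped vehicle, whereas ARA-C at the higher dose, at 2934, 2104 and 2141, did (0.74, adjusted p = 0.0011). With only the vehicle arrays of a group's own plate rows, the changes were 0.76 and 1.17 for ARA-C at its EC50 and the higher dose, 1.06 for doxorubicin at both doses and 0.70 for puromycin (adjusted p = 0.03), all called. The ACTB 3' to 5' log2 ratio averaged 2.28 to 4.55 in the groups of rows A to F against 1.92 to 2.08 in vehicle of those rows. It averaged 1.57 in ARA-C at the higher dose against 0.529 to 0.664 in vehicle of rows G and H. Its part in the TOP1 difference from vehicle was not tested. At 3 d no group passed on 208900_s_at, and at 24 h doxorubicin at the higher dose, at 4244, 4620 and 4203 against 2506 to 2829 in vehicle, rose 1.62-fold (adjusted p = 0.0046). In that 24 h group the ACTB ratio averaged 1.78, against 0.509 to 0.828 in vehicle of the same plate rows, and its part was not tested.

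TOP1 probe set 208901_s_at went another way in part of these groups. At 5 d vehicle read 7166, 6612, 6417, 5109, 5060 and 4707, and doxorubicin at the higher dose read 3977 and 3659, below all of them, a fall of 0.60 (SE 0.12, adjusted p = 2.4e-05) that was lost under quantile normalization (-0.04, adjusted p = 0.81) and under a shift to 1 median (-0.19, adjusted p = 0.44). Doxorubicin at its EC50 read 7465, 7093 and 6966, a rise of 0.31 (adjusted p = 0.011) that was 0.09 against vehicle of the same plate rows (adjusted p = 0.62) and 0.28 without replicate 1 (adjusted p = 0.056). ARA-C at the higher dose read 8491, 8493 and 10220, 1.57-fold above vehicle (adjusted p = 1.6e-06), and puromycin at its EC50 read 8496 and 9200, 1.53-fold above (adjusted p = 0.00017), with 0.39 within its plate rows (adjusted p = 0.057). At 24 h ARA-C at its EC50 read 6809, 6455 and 6590 against 8877 to 9512, a fall of 0.47 (SE 0.1, 0.722-fold, adjusted p = 0.001, and -0.44 with an adjusted p of 0.098 under the median shift), while 208900_s_at in the same arrays read 3155, 3367 and 3510 (0.31, adjusted p = 0.27). At 3 d the same dose read 7109, 8012 and 6288, a fall of 0.36 (adjusted p = 0.012), which without replicate 3 was -0.27 with an adjusted p of 0.16. Across the 67 arrays, which share treatments and RNA quality, the TOP1 probe sets had a Pearson r of 0.24 after the vehicle mean of the same time was taken off.

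TOP3A, the partner of BLM, gave few calls. At 24 h doxorubicin at the higher dose read 524.2, 410.7 and 483.9 on 214299_at against 299.3 to 354.1 in vehicle, above all of them, a rise of 1.46-fold (adjusted p = 0.024) that was lost without replicate 1 (0.47, adjusted p = 0.11) or replicate 3 (0.52, adjusted p = 0.1). At 3 d ARA-C at its EC50 read 395.6, 334.7 and 605.2 on this probe set (0.54, adjusted p = 0.025, overlapping vehicle) and 355.6, 346.1 and 393.8 on 204946_s_at (0.46, adjusted p = 0.046). Both calls were lost without replicate 3, the array with few low signals, at 0.29 (214299_at, adjusted p = 0.42) and 0.41 (204946_s_at, adjusted p = 0.21), and also without vehicle replicate 4 (0.45 and 0.38) or 5 (0.48 and 0.39), and on 204946_s_at without vehicle replicate 6 (0.48) or ARA-C replicate 1 (0.48) or 2 (0.50). On the dim TOP3A probe set 214300_s_at ARA-C at its EC50 at 5 d read 38.05, 116.3 and 48.55 against 6.299 to 40.59 (1.36, SE 0.46, adjusted p = 0.012), which was 0.88 and no longer called without replicate 2. The 2 puromycin arrays of 5 d at the EC50 read 4.564 and 6.866 on it, under the floor, so no fold is given. No puromycin group passed on any TOP3A probe set as processed here. Under 6 other settings 214299_at passed at 5 d at the EC50 (0.53 to 1.01), and 204946_s_at passed there under quantile normalization (0.66) and the median shift (0.76) and at 24 h with a replicate or plate block (-0.54).

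**Figure D4:**
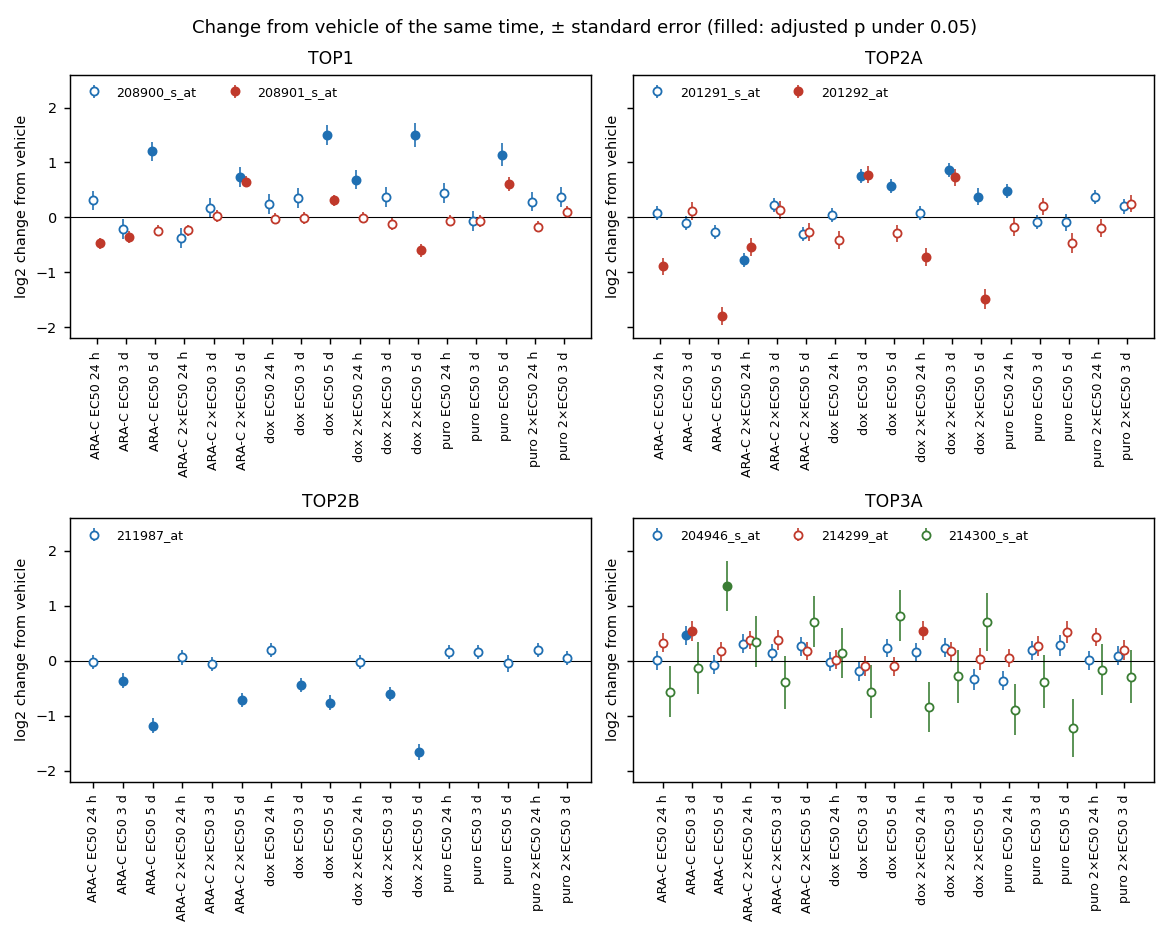
Log2 change against vehicle of the same time for the 8 probe sets, by compound, dose and time. Points are limma log2 changes with bars of 1 standard error, and filled points passed an adjusted p of 0.05. TOP2B lies below 0 for doxorubicin at 3 d and 5 d, and TOP1 208900_s_at lies above 0 at 5 d for every group shown.

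The counts of the 8 probe sets that passed stand beside the share of all probe sets that passed in the same comparison. With doxorubicin at its EC50, 0 of 8 passed at 24 h in the limma fit (unadjusted p under 0.05 in 0 upward and 1 downward), against 2.61% of all that rose and 2.78% that fell. At 3 d 2 rose and 1 fell, against 9.07% and 11.2%, and at 5 d 3 rose and 1 fell, against 11.5% and 29.1%. At the higher dose 2 rose and 1 fell at 24 h (6.72% and 7.77% of all), 2 rose and 1 fell at 3 d (11.6% and 11.2%), and 2 rose and 3 fell at 5 d (15.2% and 38.0%). The TOP2B fall at 5 d thus stood among the 29.1% and 38.0% of probe sets that fell, while the TOP2A rise at 3 d, on 2 of 2 probe sets, stood among the 9.07% and 11.6% that rose. The median change of all probe sets was 0 at 3 d with doxorubicin at both doses, and -0.15 and -0.25 at 5 d. Of all calls at 5 d, 28.3% and 28.5% were upward at the 2 doses, which became 49.5% and 49.8% under quantile normalization and 53.9% and 47.4% under the median shift.

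With ARA-C at its EC50, 0 rose and 2 fell at 24 h (5.46% and 8.94% of all), 2 rose and 2 fell at 3 d (14.7% and 8.0%), and 2 rose and 2 fell at 5 d (9.57% and 38.0%). For the higher dose these were 0 and 2 at 24 h (6.82% and 2.35%), 0 and 0 at 3 d in the limma fit (1 and 0 at an unadjusted p under 0.05, against 10.0% and 8.10%), and 2 and 1 at 5 d (11.5% and 13.6%). The median of all probe sets moved by 0.27 at 3 d and -0.28 at 5 d with ARA-C at its EC50 and by 0.20 at 24 h at the higher dose. With each array shifted to 1 median the TOP2B change at the EC50 was -0.69 at 3 d and -0.76 at 5 d, against -0.36 and -1.18 as scaled by the authors. Of all calls at the EC50, 37.9%, 64.7% and 20.1% were upward at the 3 times, which became 51.9%, 49% and 48.4% under quantile normalization and 37.9%, 23.7% and 46.5% under the median shift. At the higher dose 74.3% were upward at 24 h (51.7% and 17% under these settings) and 55.3% at 3 d (52.2% and 40.8%). With puromycin at its EC50, 1 rose at 24 h (2.13% of all rose and 8.36% fell), limma called none at 3 d (0 and 0 at an unadjusted p under 0.05, against 0.707% and 2.50%), and 2 rose at 5 d (5.51% and 12.1%). At its higher dose limma called 0 of 8 at 24 h (3.42% and 4.32%) and 0 at 3 d (4.41% and 7.19%), with 2 and 1 higher at an unadjusted p under 0.05. Of all puromycin calls at the EC50, 20.3%, 22.1% and 31.4% were upward at the 3 times, against 53.4%, 52.2% and 54.6% under quantile normalization and 75.8%, 66.6% and 80.8% under the median shift. At the higher dose 44.2% and 38% were upward at 24 h and 3 d, against 54.6% and 49.9%, and 58.1% and 60.9%, under these settings. The effect at 5 d less the effect at 24 h at the EC50, a difference chosen after the data were seen, passed upward in 5 and downward in 3 of 24 tests, against 3.91% and 16.0% over all probe sets.

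Doxorubicin and ARA-C, both at their EC50, differed on TOP2A at 3 d, where doxorubicin lay above ARA-C by 0.85 on 201291_s_at (adjusted p = 6e-05) and by 0.66 on 201292_at (adjusted p = 0.012). The same difference at the higher dose was 0.64 (201291_s_at, adjusted p = 0.0015) and 0.59 (201292_at, adjusted p = 0.019). On 201292_at these calls did not outlast every array left out: without ARA-C replicate 3 the values were 0.63 (adjusted p = 0.062) and 0.48 (adjusted p = 0.13), and without doxorubicin replicate 3 they were 0.62 (adjusted p = 0.059) and 0.59 (adjusted p = 0.058), with 0.57 (adjusted p = 0.051) at the higher dose without doxorubicin replicate 1. Doxorubicin also lay above puromycin on TOP2A at 3 d at the EC50, by 0.83 (201291_s_at, adjusted p = 2.6e-05) and 0.58 (201292_at, adjusted p = 0.021), the latter lost without replicate 2 or 3 of either compound (0.54 to 0.57). On TOP2B doxorubicin lay below puromycin by 0.60 at 3 d (-0.60, adjusted p = 0.0022) and by 0.72 at 5 d (-0.72, adjusted p = 0.00071) at the EC50. Between doxorubicin and ARA-C at the EC50 the TOP2B values at 5 d differed the other way, with doxorubicin higher by 0.41 (adjusted p = 0.036, overlapping, and 0.04 without the ARA-C array of 1198, with an adjusted p of 0.93; the call was also lost without doxorubicin replicate 1, 2 or 3, at 0.40 to 0.43, and was 0.63 without ARA-C replicate 3), whereas at the higher dose it was lower at 3 d (-0.55, adjusted p = 0.0056, and -0.43 with an adjusted p of 0.078 without doxorubicin replicate 2) and at 5 d (-0.95, adjusted p = 3.5e-06). ARA-C at its EC50 was below puromycin on TOP2B at 3 d (-0.52, adjusted p = 0.0094) and at 5 d (-1.13, adjusted p = 1.8e-07). On TOP1 208901_s_at at 5 d at the higher dose doxorubicin was below ARA-C by 1.24 (-1.24, adjusted p = 4.1e-11). At the higher dose doxorubicin lay in plate rows A to F and ARA-C in rows G and H. Compound and plate rows therefore cannot be told apart in any of these higher-dose differences between doxorubicin and ARA-C. At 5 d the ACTB 3' to 5' log2 ratio averaged 4.55 and 1.57 in these 2 groups, and its part was not tested.

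Over all 8 probe sets and 16 such comparisons between compounds, 128 tests, 19 were higher and 19 lower in the first compound, against 8.06% and 9.39% over all probe sets. Between the doses of 1 compound, 64 tests gave 3 that were higher and 6 that were lower at the higher dose, against 6.55% and 3.90%. Those of TOP2A were a lower 201291_s_at with ARA-C at 24 h (-0.85, adjusted p = 0.00015), a higher 201292_at with ARA-C at 5 d (1.52, adjusted p = 9.8e-09) and a lower 201292_at with doxorubicin at 5 d (-1.20, adjusted p = 1e-05). ARA-C at its EC50 lay in plate rows A to F and the higher dose in rows G and H. Dose and plate rows therefore cannot be told apart for ARA-C. At 5 d the ACTB 3' to 5' log2 ratio averaged 3.71 and 1.57 at the ARA-C doses and 2.48 and 4.55 at those of doxorubicin. Its part in these differences was not tested.

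**Figure D5:**
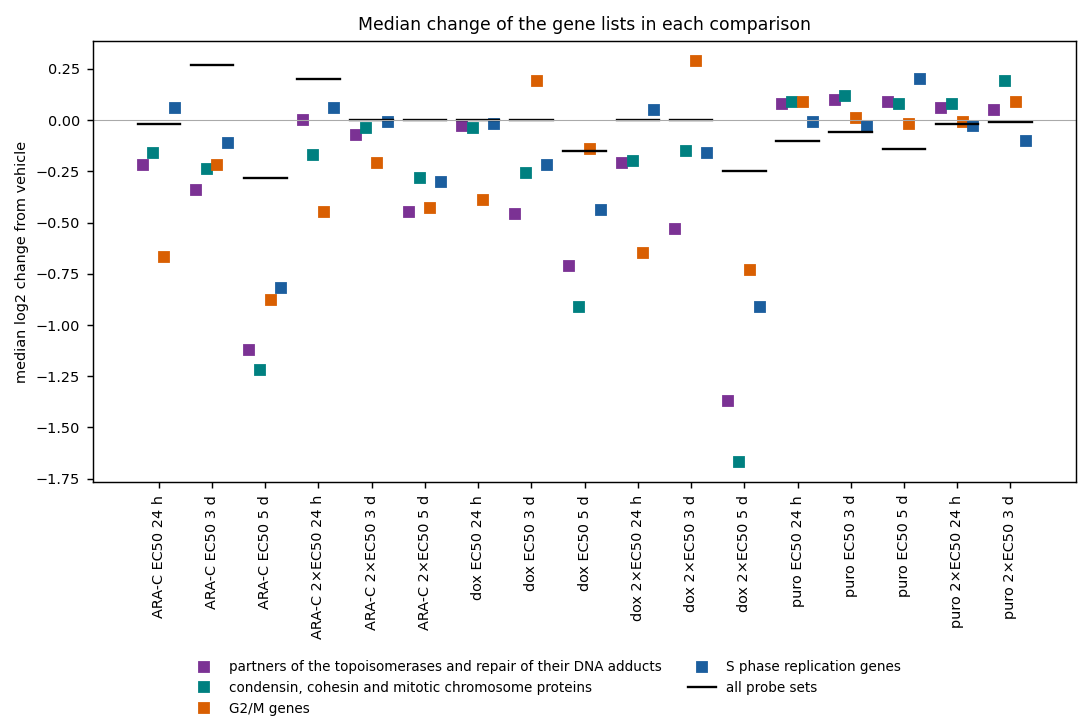
Median log2 change against vehicle for the 4 lists of topoisomerase partners, condensin, cohesin and mitotic chromosome proteins, G2 and mitosis, and S phase, by compound, dose and time. Squares are list medians and black lines the median of all probe sets. With doxorubicin at 3 d the G2 and mitosis median lies above 0 (0.19 and 0.29) and the partners' median below (-0.46 and -0.53).

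Genes that work beside the topoisomerases were read from lists made with earlier results of these data known, and each list is described by its counts and median beside the share of all probe sets called and their median. Of 14 measured partners (among them the topoisomerase TOP3B, the BLM helicase, repair factors of trapped topoisomerases and the insulator protein CTCF), 0 rose and 8 fell at 3 d with doxorubicin at its EC50, with a median change of -0.46 against 0 for all, where 9.07% of all probe sets rose and 11.2% fell. Among them NBN and MRE11, which form a nuclease that works at broken ends, fell by 1.48 (378.4 ± 48.7 against 1055 ± 103, adjusted p = 4.7e-08) and by 0.73 (adjusted p = 1.3e-06). CTCF, an insulator protein that shares many sites with TOP2B, fell by 0.82 (1883 ± 43 against 3323 ± 137, adjusted p = 9.4e-06). The higher dose gave 0 and 8 with a median of -0.53 against 0 for all (11.6% of all rose and 11.2% fell). The next list held 15 genes, of condensin and cohesin, which fold chromosomes and hold sister chromatids, and of the mitotic chromosome proteins KIF4A and MKI67. At the EC50 0 of them rose and 4 fell, with a median of -0.26 against 0 for all. Those that fell included STAG1, a cohesin subunit (-1.60, adjusted p = 1.1e-11), NCAPD2 (-0.66, adjusted p = 0.0055) and SMC3 (-0.47, adjusted p = 0.03).

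Part of the G2 and mitosis list rose at 3 d, as TOP2A did. Of its 20 genes 8 rose and 0 fell with doxorubicin at its EC50 (median 0.19 against 0 for all, with 9.07% of all rising and 11.2% falling) and 9 rose and 0 fell at the higher dose (median 0.29 against 0, with 11.6% and 11.2%). With each array shifted to 1 median the higher dose gave 5 and 0, and under quantile normalization 10 and 0. AURKA, a mitotic kinase, averaged 11270 ± 376 against 6668 ± 876 in vehicle, a rise of 0.77 (adjusted p = 7.9e-06), UBE2C, which marks mitotic proteins for destruction, rose by 0.59 (adjusted p = 2.9e-08), and TTK, a spindle checkpoint kinase, rose by 0.56 (adjusted p = 4e-07). At 24 h the same list had 0 up and 9 down with doxorubicin at its EC50 (median -0.39 against 0 for all, 2.61% of all up and 2.78% down, and 0 and 6 under the median shift). At the higher dose it had 0 up and 15 down (median -0.65 against 0, with 6.72% and 7.77%). Of 20 S phase genes, 0 rose and 7 fell at 3 d at both doses, with medians of -0.22 and -0.16 against 0 for all. POLA1, the catalytic subunit of the polymerase that starts new strands, averaged 1031 ± 97.2 against 2493 ± 157 (-1.28, adjusted p = 4.9e-10), and GINS1 and GINS2, parts of the replicative helicase, fell by 0.84 (adjusted p = 1.2e-06) and 0.65 (adjusted p = 3.5e-05).

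ARA-C at its EC50 at 3 d had 1 up and 6 down among the partners (median -0.34) and 0 up and 8 down among the G2 and mitosis genes (median -0.22), against a median of 0.27 for all probe sets, of which 14.7% rose and 8.0% fell. The G2 and mitosis counts moved with the scaling, to 1 and 5 under quantile normalization and 0 and 15 under the median shift, and those of the partners became 0 and 6, and 0 and 8. Without replicate 3, the array with few low signals, the partners had 0 and 5 and the G2 and mitosis genes 0 and 4. With all 3 arrays AURKA fell by 0.35 (adjusted p = 0.045), while TOP2A passed on neither probe set. At 5 d ARA-C at its EC50 had 0 up and 13 down of the partners (median -1.12) and 0 and 18 of the G2 and mitosis genes (median -0.88), against a median of -0.28 for all, of which 9.57% rose and 38.0% fell. Under quantile normalization these were 2 and 6, and 1 and 11, and under the median shift 0 and 10, and 0 and 12. Doxorubicin at its EC50 at 5 d had 0 and 12 of the partners (median -0.71) against a median of -0.15 for all, of which 11.5% rose and 29.1% fell. These counts became 1 and 6 under quantile normalization and 0 and 6 under the median shift. The G2 and mitosis genes had 3 and 7 there (median -0.14), which became 6 and 6, and 5 and 3. Puromycin at its EC50 at 3 d had 1 up and 0 down of the partners (median 0.10) and likewise of the G2 and mitosis genes (median 0.01), where TTK rose by 0.28 (adjusted p = 0.045), against a median of -0.06 for all, of which 0.707% rose and 2.50% fell.

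The genes whose log2 changes most resembled those of 1 probe set of each member, and of that probe set only, were listed by Pearson's r over the 67 arrays after the mean of vehicle of the same time was taken off, as a description of arrays that share RNA quality and treatment. For TOP2B (211987_at) they were TRIM33, STAG2 and ITGB3BP (r = 0.94 each), then ETFDH and POLI (0.93). For TOP2A 201291_s_at they were BRD8 and ISL1 (0.72), ACVR2A (0.71), CENPF (0.70), a kinetochore protein of G2 and mitosis, and PTPN2 (0.68). For TOP1 208901_s_at they were TXNDC9 (0.82), PCDH7 (0.79) and, at 0.78, MCL1, ATP6V0A2 and RIOX1, and for TOP3A 214299_at E2F1 (0.59), a transcription factor of S phase entry, TNIP2 (0.57) and, at 0.56, GNA11, IFFO1 and ZNF410. Among the members themselves, TOP2A 201291_s_at and TOP2B had an r of -0.08, both TOP2A probe sets 0.43, and TOP1 208900_s_at and TOP2B -0.64.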

How the data were processed

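RNA from A673 cells was hybridised to Affymetrix human expression arrays in plate format, 1 colour, 68 arrays in all. The authors deposited 1 signal intensity per probe set and array, made with MAS5 per the submitters' processing notes, whose version and settings are not given in the sources used here, and already scaled between arrays. Signals under 10 were set to 10 and those over 16000 to 16000, and log2 was taken. The deposited intensity values were otherwise kept as scaled. Genes were named from the platform annotation, which gave 1 symbol to 19230 probe sets, several to 125 and none to 2860, and 715 control probe sets were left out.

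A linear model with 1 mean per compound, dose and time was fitted over 67 arrays in limma 3.58.1 (R 4.3.3) with an intensity trend in the variance, and p-values were adjusted by the Benjamini-Hochberg method over 22215 probe sets. A group of 1 array was not tested. The ratio of TOP2A to TOP2B was tested by exact permutation of arrays. The fit was checked on simulated data. Figures and motif searches used Python 3.11.15, matplotlib 3.10.9 and numpy 2.4.6. The number of arrays limits the precision, and depth has no meaning for these signals. Groups came from the labels, and plate rows from the study's plate map.

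The text names every probe set of the 4 members, for each member the 5 genes of highest Pearson r (1 symbol, mean above the median of all probe sets), and of each gene list the 3 genes with the smallest p for doxorubicin at its EC50 at 3 d, with the markers. The members, the ratio and the lists were chosen with earlier results of these data known. Of 19 listed partners 14 were measured, and the others were not analysed here. Alternatives were other floors and caps, quantile normalization, a median shift, a filter on dim probe sets, other array sets, plate and replicate blocks and each array left out in turn. Leaving out arrays with few low signals, the single ratio comparisons with 201292_at, the list counts under other scalings and the effect at 5 d less that at 24 h were chosen after seeing the data.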

Additional observations from a re-analysis of the deposited data

Results flagged for a closer look

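For TOP2B the effect of treatment at the EC50 differed between 5 d and 24 h (limma, test of the difference, adjusted over all probe sets), by -1.16 for ARA-C and -0.95 for doxorubicin on the log2 scale. TOP2A differed by 0.53 for doxorubicin on 201291_s_at and by -0.9 for ARA-C on 201292_at. TOP1 differed by 0.89 for ARA-C and 1.26 for doxorubicin on 208900_s_at and by 0.68 for puromycin on 208901_s_at. On 208900_s_at the 24 h and 5 d averages were 2695 and 1505 in vehicle, 3344 and 3260 with ARA-C and 3265 and 4031 with doxorubicin. On 208901_s_at they were 9165 and 5845 in vehicle and 8801 and 8848 with puromycin, so there the vehicle level moved and that of puromycin hardly did. TOP3A differed by 1.92 for ARA-C on the dim probe set 214300_s_at. These tests were chosen after seeing the data, and at 5 d the ACTB 3' to 5' log2 ratio averaged 3.71, 2.48 and 2.28 with ARA-C, doxorubicin and puromycin against 1.92 to 2.08 in vehicle of the same plate rows, and its part in them was not tested.

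In vehicle at 3 d, replicate 4 read 3434 for TOP2B, apart from the other arrays at 3906 to 3957. It was the only array that stood apart in this way among 24 combinations of a probe set and a vehicle time, where chance gives about 1 in 20 for each combination. No treated group had the 4 arrays needed to be examined.

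The array left out of all comparisons, puromycin at its EC50 at 5 d, replicate 3, read 18740 on TOP1 208901_s_at, 9689 on TOP1 208900_s_at and 422.8 on TOP3A 214299_at, above the highest vehicle arrays of 5 d (7166, 2422 and 323.6). The single array of puromycin at the higher dose at 5 d read 3588 on TOP1 208900_s_at and 345.7 on TOP3A 204946_s_at, above the highest vehicle arrays (2422 and 251.3). Neither array was tested.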

How the results depend on the processing

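Each comparison tested 8 probe sets. Against vehicle there were 15 calls over 6 comparisons for ARA-C, 18 over 6 for doxorubicin and 3 over 5 for puromycin. There were 38 in 128 tests between compounds, 9 in 64 between doses and 9 over 3 comparisons between times in vehicle. Over all probe sets 5.46% to 14.7% rose and 2.35% to 38.0% fell in the ARA-C comparisons. These shares were 2.61% to 15.2% and 2.78% to 38.0% for doxorubicin, and 0.707% to 5.51% and 2.50% to 12.1% for puromycin. They were 1.50% to 13.2% and 1.88% to 10.8% between vehicle times, 8.06% and 9.39% between compounds, and 6.55% and 3.90% between doses. With the brightest probe set of each gene alone the calls were 8, 11, 24, 5 and 4, puromycin aside. For puromycin they were 7 with the left-out array kept, 6 under quantile normalization, 8 under a median shift, 6 with dim probe sets left out and 1 against vehicle of the same plate rows. Between vehicle times there were 3 within plate rows A to F. Leaving out each array in turn gave 12 to 17 for ARA-C, 17 to 19 for doxorubicin, 2 to 4 for puromycin, 34 to 43 between compounds, 8 to 10 between doses and 8 to 10 between times. Without the arrays with few low signals, a setting chosen after seeing the data, there were 11, 18, 4, 34, 8 and 9.

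Of 92 called member values, 30 lost their call when only the arrays of the comparison were fitted and 19 with the left-out array kept. Quantile normalization turned the TOP2B difference between the ARA-C doses at 5 d from 0.47 to -0.16 and the TOP3A 204946_s_at difference between doxorubicin and ARA-C at the higher dose at 5 d from -0.60 to 0.15. The causes were not tested.

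The TOP2A to TOP2B ratio at 3 d and 5 d differed from vehicle by 0.59 for ARA-C, 1.26 for doxorubicin and -0.14 for puromycin. With the other TOP2A probe set ARA-C gave -0.07. Against vehicle of the same plate rows ARA-C gave 0.62 (adjusted exact permutation p = 0.18) and doxorubicin 1.29 (0.1). With the replicate block, 5 pairs, they gave 0.63 and 1.26, where 5 pairs allow no exact permutation p below 0.062. Each array left out in turn gave 0.52 to 0.66, 1.21 to 1.32 and -0.19 to -0.09.

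Over 43 pairs of a treated and a vehicle array of the same number and time, the correlation of deviations from group means ran from -0.098 to 0.112. The vehicle means mix plate rows A to F with rows G and H. ARA-C at the higher dose, in rows G and H, was set against vehicle arrays of rows A to F. These correlations therefore cannot decide whether replicate numbers pair the arrays. With the replicate block as a term in the fit, 85 of 92 called values kept their call and 7 lost it.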
